A study of Mus musculus with 6 samples.

Results

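The genes described here are the extracellular arm of Wnt signalling and its axin scaffold as measured in mouse sciatic nerve: Wnt ligands, Frizzled (Fzd) receptors, the co-receptors Lrp5 and Lrp6, R-spondins, the secreted inhibitors of the Sfrp, Wif and Dkk families, and Axin1 and Axin2. They were taken from the deposited table by gene symbol alone, with no use of their values, and the rule found 44 of 59485 rows, of which 23506 carry a symbol. The members were 19 ligands, 8 Frizzled receptors, 2 co-receptors, 4 R-spondins, 5 inhibitors that bind the ligand, 4 Dickkopf inhibitors that bind the co-receptor, and 2 axins. *Fzd2* and *Fzd7* were not analysed here. RNA was sequenced from sciatic nerves at postnatal day 4 (P4) from 3 control and 3 mutant mice, and each animal gave 1 library. The mutants are HtPA-Cre; Adar1 fl/fl; R26R animals, in which Cre recombinase under the human tissue plasminogen activator promoter acts on floxed alleles of the gene of the RNA-editing enzyme ADAR1 in neural crest cells, and R26R is a yellow fluorescent protein tracer switched on by Cre. The labels call the controls wild-type, and the methods give that group no Cre and either 2 floxed *Adar1* alleles or 1 (fl/fl or fl/+) beside the R26R tracer. In its account of the skin the study also counts animals with HtPA-Cre and a single floxed allele (Adar1 fl/+) among its controls, whereas the labels of these libraries name wild-type alone. By the labels no control carried Cre, so the presence of Cre and the loss of both *Adar1* alleles cannot be told apart. The Cre driver acts in the neural crest lineage, which the study gives as the source of most peripheral neurons and glia, Schwann cells included. The nerve also holds fibroblasts, perineurial cells, endothelial cells, immune cells and axons, so every value is a sum over cell types. In mutants it is also a sum over recombined and non-recombined cells, and how far each cell type had recombined was not measured.

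Wnt proteins are lipid-modified secreted ligands that bind Frizzled receptors together with the co-receptors LRP5 and LRP6. In the canonical branch this stops the destruction complex, built on axin, from degrading β-catenin, which then acts with TCF/LEF factors on target genes. R-spondins strengthen the response by binding LGR receptors and sparing Frizzled proteins from removal, whereas SFRP and WIF1 proteins bind the ligands, and Dickkopf proteins such as DKK1 block the co-receptors. In peripheral nerve, Wnt signalling is known for its part in the Schwann cell lineage and in the early steps of myelination.

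The libraries held 50938349 to 78250094 reads on genes, and on the log2 scale the correlation between libraries was 0.941 to 0.951 within a genotype and 0.855 to 0.884 between genotypes. The gene-level value of *Adar* was higher, not lower, in the mutant-labelled libraries, at 1601 ± 467 (SD, n = 3) in controls and 10284 ± 1306 (SD, n = 3) in mutants. A value over the whole gene does not separate the floxed segment from the rest, so it neither bears out nor refutes the labels, and control and mutant below mean the libraries so labelled. Markers of other cells moved with genotype. The summed value of 8 myelin genes ran from 3746761 to 4594531 in controls and from 91453 to 548298 in mutants, and all 8 genes fell. Of 6 genes of the Schwann cell lineage 3 fell, with sums of 77303 to 81986 in controls and 25444 to 36923 in mutants, and of 6 genes of non-myelinating Schwann cells 1 rose, with sums of 19160 to 21569 against 20040 to 22422. Of 7 perineurial genes 1 rose and 2 fell, with sums of 16922 to 20335 against 14200 to 16510. Of 10 skeletal muscle genes 9 rose, with sums of 7157 to 37462 in controls and 48350 to 359943 in mutants, the highest in mutant replicate 3. Of 12 fibroblast genes 1 rose and 2 fell, with sums of 1812208 to 2150597 against 752852 to 1092864. Of 6 neuronal genes 4 rose, with sums of 3389 to 3663 against 8121 to 8770. Of 8 macrophage genes 2 rose and 3 fell, with sums of 11211 to 14439 against 5787 to 7556, and of 5 T cell genes tested 3 rose, with sums of 62.1 to 76.6 against 549.9 to 704.8. Of 6 erythroid genes 4 fell, with sums of 39725 to 55747 against 3854 to 11746. Of 6 cartilage and bone genes 1 rose and 1 fell, with sums of 11386 to 14355 against 2881 to 3709, and of 6 keratinocyte genes 3 rose, with sums of 342 to 425 against 466 to 505. The 3 keratinocyte genes that rose, and 2 of the 3 T cell genes, reached the minimum level for a test in mutants alone. Of 8 mural genes 1 rose, and none of 7 endothelial or 6 adipocyte genes passed. The adipocyte sums were uneven within a genotype, at 14227, 5505 and 6603 in control replicates 1, 2 and 3. In mutant replicates 1, 2 and 3 they were 4452, 30633 and 8754. None of these lists had a member limited to 3 reads or fewer in all libraries. The part of these cells in the results on Wnt genes was not tested, and in whole nerve fewer cells of a type and less RNA per cell cannot be told apart.

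Of the 44 members, 28 have an entry in the RefSeq promoter table used here (GRCm38.p6, the mm10 coordinates), with 31 start sites. The 250 bases before the start site are shown for 5 of them, so that the start region of members that moved in opposite directions can be read beside that of *Axin2*, a widely used target gene of the canonical branch. *Wnt6* (plus strand, chr1:74771642-74771891) and *Rspo1* (plus strand, chr4:124986180-124986429) were lower in mutants, *Wnt11* (plus strand, chr7:98834862-98835111, the upstream of its 2 listed start sites) and *Rspo4* (plus strand, chr2:151842677-151842926) were higher, and *Axin2* (plus strand, chr11:108920099-108920348) did not pass the test. Capitals mark every match to the TCF/LEF core CTTTGA or to the GC box GGGCGG on either strand, read there as TCAAAG or CCGCCC. All are written 5′ to 3′.
Wnt6: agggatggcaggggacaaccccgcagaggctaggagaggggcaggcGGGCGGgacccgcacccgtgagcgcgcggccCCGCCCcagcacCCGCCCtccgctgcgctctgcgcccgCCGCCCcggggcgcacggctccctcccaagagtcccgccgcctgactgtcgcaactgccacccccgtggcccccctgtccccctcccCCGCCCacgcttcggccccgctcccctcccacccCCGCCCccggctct
Rspo1: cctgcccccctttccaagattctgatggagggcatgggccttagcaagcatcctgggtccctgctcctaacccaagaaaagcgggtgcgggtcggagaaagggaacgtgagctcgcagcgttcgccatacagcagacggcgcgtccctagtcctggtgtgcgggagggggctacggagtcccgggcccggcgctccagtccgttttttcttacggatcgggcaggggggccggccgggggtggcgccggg
Wnt11: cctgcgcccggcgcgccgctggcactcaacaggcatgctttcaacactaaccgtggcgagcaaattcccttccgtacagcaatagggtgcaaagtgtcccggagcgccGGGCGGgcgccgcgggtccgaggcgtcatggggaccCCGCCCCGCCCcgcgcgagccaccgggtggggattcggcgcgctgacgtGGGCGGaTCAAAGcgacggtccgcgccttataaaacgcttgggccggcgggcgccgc
Rspo4: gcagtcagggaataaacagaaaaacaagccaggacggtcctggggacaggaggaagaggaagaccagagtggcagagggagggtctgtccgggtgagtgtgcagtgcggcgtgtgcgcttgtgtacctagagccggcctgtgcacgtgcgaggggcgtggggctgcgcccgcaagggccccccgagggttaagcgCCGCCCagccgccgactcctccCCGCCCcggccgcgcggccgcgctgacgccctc
Axin2: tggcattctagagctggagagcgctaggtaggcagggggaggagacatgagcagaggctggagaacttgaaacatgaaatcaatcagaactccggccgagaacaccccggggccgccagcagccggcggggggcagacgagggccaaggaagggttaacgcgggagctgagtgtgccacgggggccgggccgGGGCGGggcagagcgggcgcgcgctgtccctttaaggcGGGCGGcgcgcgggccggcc

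These windows were rich in G and C. The share of G and C was 79.6% for *Wnt6*, 66.8% for *Rspo1*, 70.8% for *Wnt11*, 69.6% for *Rspo4* and 69.2% for *Axin2*. Over the 31 windows of members the median was 69.2%, against 52.4% over all 32851 windows of the table. A GC box was found in 22 of the 31 windows (71.0%) and in 32.7% of all windows, with 6 matches in the *Wnt6* window, 4 in that of *Wnt11*, 2 each in those of *Rspo4* and *Axin2*, and 0 in that of *Rspo1*. The TCF/LEF core was found in 4 of the 31 windows (12.9%), close to the 13.8% of all windows. Among the windows shown only that of *Wnt11* holds it, at the base 50 before the start site. A match describes the letters of the window and is no evidence of binding.

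To ask how the Wnt genes differ between the genotypes, mutant and control libraries were compared over all genes. A gene passed where the raw p of limma was no higher than 0.05 and the difference 2-fold or more. These limits are those of the study, but it applied them to DESeq2 results for genes above an intergenic background. The counts of calls are therefore not comparable with its own. Values are reads divided by the size factor of their library, and fold changes are differences between means of log2(value + 1). For low genes their size depends on the pseudocount, and they can lie above or below the ratio of the mean values. *Wnt1*, for example, had a change of -0.24 with mean values of 7.17 in controls and 11.7 in mutants. Of the 44 members, 36 reached a mean value of 10 in a genotype and were tested. *Wnt1*, *Wnt4*, *Wnt7b* and *Rspo4* reached it in mutants alone and no member in controls alone, so the rises of *Wnt7b* and *Rspo4* below belong to genes that entered the test through the genotype where they were high, and the counts that hold them are descriptions. *Wnt10a*, *Wnt10b*, *Wnt11*, *Wnt2b*, *Wnt7b*, *Sfrp4*, *Wif1*, *Rspo2*, *Rspo3* and *Rspo4* rose and *Wnt6*, *Fzd3* and *Rspo1* fell, which is 13 of 36, beside 24.2% of the 25802 genes tested. The 10 that rose stand beside 13.9% of all genes and the 3 that fell beside 10.4%. With the Benjamini-Hochberg adjustment of limma, 11 of the 13 stayed at or under 0.05, *Wnt10b* and *Wnt2b* being the exceptions, and 15 members did so at any size of change, beside 35% of all genes. The values of the genotypes did not overlap for 17 of the 36 members, 12 of them higher and 5 lower in mutants, beside 49.2% of all genes, so separation of the libraries was no more common among the members than in the whole table. The median change over the 36 members was 0.34, and over all genes 0.03. The plot of fold changes by role shows that the members that passed lie among the secreted proteins, with *Fzd3* as the exception.

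**Figure D1:**
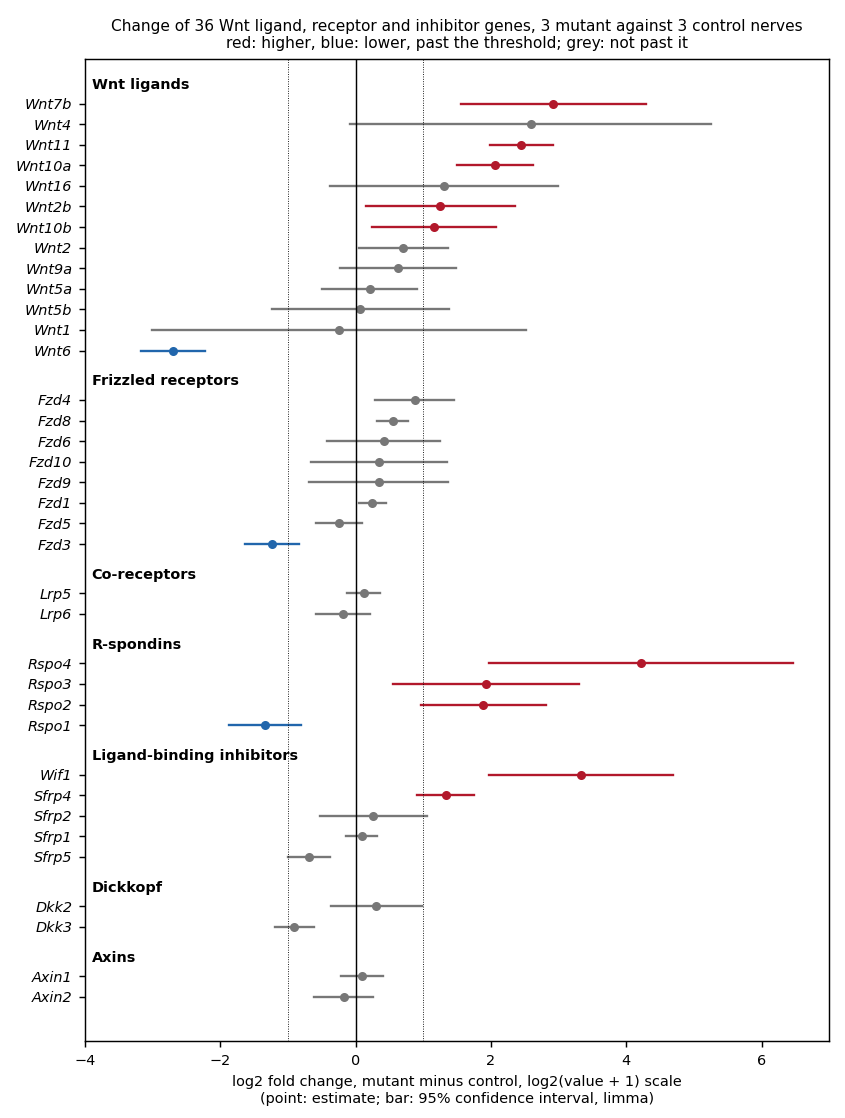
Log2 fold change, mutant minus control, of the 36 members tested (n = 3 libraries per genotype), grouped by role; points are limma estimates, bars their 95% confidence intervals, dotted lines a 2-fold change. The 10 members in red and 3 in blue passed the threshold, while both co-receptors and both axins lie near 0.

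Among the 13 ligands tested, *Wnt6* fell while 5 others rose, or 46.2% past the threshold beside 24.2% of all genes. *Wnt6* (chr1:74771891-74785319) encodes a ligand known from epithelia and the early neural crest. Its value was 1267, 1645 and 1614 in control replicates 1, 2 and 3, and 302, 206 and 195 in mutant replicates 1, 2 and 3. The genotypes lie far apart, and the fall of 6.44-fold between the means had a log2 fold change of -2.70 ± 0.21 (SE, adjusted p 4.3e-05 by limma). It was the strongest fall of the 36 members tested.

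*Wnt10a* (chr1:74791516-74804173), a canonical ligand known from skin appendages and teeth, lies on the same strand 6196 bases beyond *Wnt6*. It stood at 87.7, 75.6 and 81.1 in controls and 362, 278 and 399.6 in mutants, a log2 fold change of 2.06 ± 0.24 (SE, adjusted p 0.000401). These neighbours therefore moved in opposite directions in every library. *Wnt11* (chr7:98835110-98855195), best known for non-canonical signalling in cell movement, stood at 103, 91.7 and 114 in controls and 575, 514 and 610.3 in mutants. Its change was 2.45 ± 0.20 (SE, adjusted p 5.97e-05), and the spread within each genotype was small.

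*Wnt7b* (chr15:85535445-85581821), a ligand known from lung, kidney and vascular development, was close to background in controls, at 4.44, 9.45 and 5.07, which are 4, 10 and 4 reads. In mutants it stood at 80.7, 46.3 and 37.6, from 111, 48 and 38 reads, with a log2 fold change of 2.92 ± 0.60 (SE, adjusted p 0.00622). At these low values the size depends on the pseudocount and was 1.95 with a pseudocount of 10 and 3.10 with 0.1. *Wnt10b* (chr15:98770716-98778150), known for holding back fat cell formation, stood at 73.3, 33.1 and 81.1 in controls and 132, 121 and 142 in mutants. The genotypes do not overlap, but its change of 1.16 ± 0.40 (SE) had an adjusted p of 0.0525. Without control replicate 2 it was 0.76 and below the 2-fold limit, and its call was also lost without mutant replicate 1 or mutant replicate 3 and in both edgeR and DESeq2 on the reads of 5 libraries. *Wnt2b* (chr3:104944805-104961922), known from eye and lung development, stood at 68.8, 25.5 and 30.4 in controls and 100.4, 116 and 65.3 in mutants. Control replicate 1 lies above mutant replicate 3, and the change of 1.25 ± 0.48 (SE) had an adjusted p of 0.0752 and lost its call without control replicate 2 or 3 or mutant replicate 1 or 2.

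The other 7 ligands tested did not pass. *Wnt2*, a ligand of lung and placenta, had a log2 fold change of 0.70 with an unadjusted p of 0.0392 but an adjusted p of 0.0923. *Wnt4*, known from kidney and female gonad development, stood at 14.4, 7.56 and 0 in controls and 11.6, 25.1 and 86.0 in mutants, with a change of 2.59 whose 95% confidence interval ran from -0.08 to 5.25. It passed the threshold in 4 of 17 other settings, which were a pseudocount of 10, the same total in each library, and the fits without control replicate 1 or without mutant replicate 1. With 1 library left out its change ran from 1.41 without control replicate 3 to 3.39 without control replicate 1. The high value of *Wnt4* came from mutant replicate 3, the library with the most skeletal muscle RNA. *Wnt16*, *Wnt9a*, *Wnt5a*, *Wnt5b* and *Wnt1* had changes of 1.31, 0.62, 0.21, 0.07 and -0.24, each with an interval that includes 0. With 1 library left out the change of *Wnt16* ran from 0.61 to 1.72. For *Wnt5a*, the usual non-canonical ligand, the interval was -0.49 to 0.91, so a change of 2-fold lay outside it in both directions. *Wnt3*, *Wnt3a*, *Wnt7a*, *Wnt8a*, *Wnt8b* and *Wnt9b* were too low to be tested. *Wnt3a* had 0 reads in all 6 libraries, which at a floor of 3 reads allows values of up to 2.18 to 3.80 in a library, or up to 4.36 to 7.60 if each fragment gave 2 reads and the floor is 3 fragments, and the other 5 had at most 18 reads in any library. The floor covers counting error only, while the confidence intervals rest on the spread between animals.

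To compare levels between genes, each value was divided by the length of all annotated exons of the gene in kb (GENCODE vM21), which is longer than the constitutive regions that were counted and so gives an approximate level. On this scale *Wnt6* was the leading ligand of control nerve at 688 ± 95.8 (SD, n = 3) per kb, followed by *Wnt2* at 78.1 ± 18.1, *Wnt10a* at 33.0 ± 2.5, *Wnt5b* at 27.3 ± 15.6 and *Wnt11* at 24.9 ± 2.7, of which *Wnt5b* does not differ from *Wnt10a* or *Wnt11* beyond its spread, while *Wnt10a* lay above *Wnt11* in each control library. *Wnt6* made up 68.8%, 74.5% and 79.0% of the summed ligand level per kb in control replicates 1, 2 and 3. In mutants its share was 18.1%, 15.4% and 12.6%. There *Wnt10a* at 140.3 ± 25.2, *Wnt11* at 137 ± 11.7, *Wnt2* at 129 ± 37.4 and *Wnt6* at 107 ± 26.8 per kb each differed from the next in the order by less than the larger of their SDs. *Wnt6* lay below both *Wnt10a* and *Wnt11* in each mutant library. The summed ligand level was 927 ± 83.6 per kb in controls and 692 ± 77.2 in mutants. Without division by length the ligand sum was 2271 ± 153 in controls and 2146 ± 214 in mutants (SD, n = 3), so the gap depends on that division. With 3 libraries against 3, an exact two-sided permutation test of such a sum cannot go below p = 0.1, so no test is given for sums and shares.

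**Figure D2:**
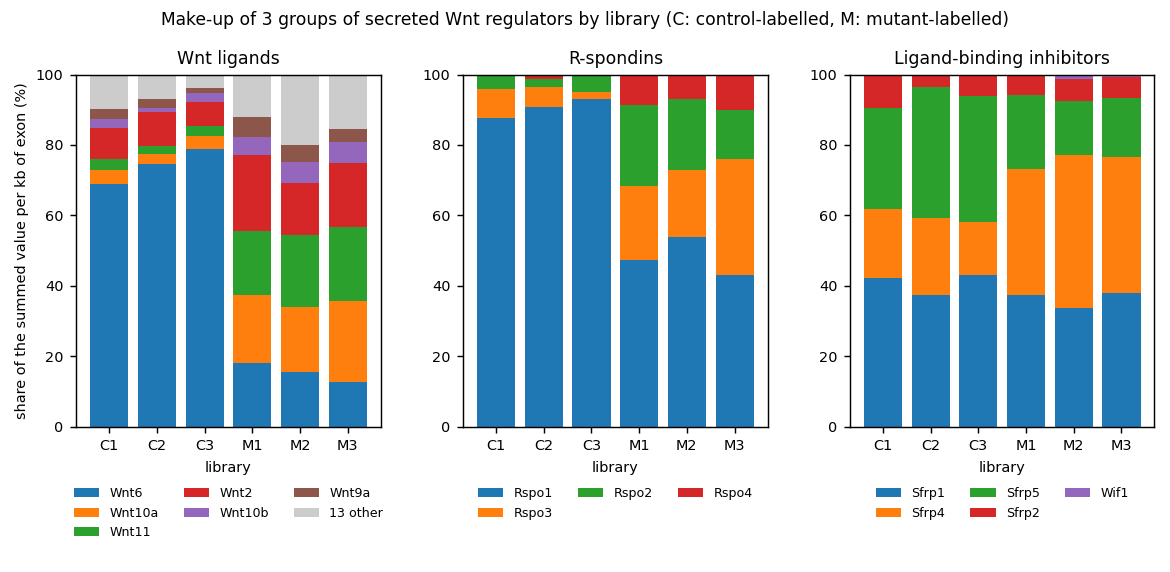
Share of each gene, in percent, of the summed level per kb of exon of the Wnt ligands, R-spondins and ligand-binding inhibitors in each library; bars are single animals, C control-labelled and M mutant-labelled. *Wnt6* fills 68.8% to 79.0% of the ligand bar in controls and 12.6% to 18.1% in mutants, and *Rspo1* fills 87.6% to 93.0% of the R-spondin bar in controls and 43.2% to 53.8% in mutants.

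Of 8 Frizzled receptors 1 fell past the threshold and 0 rose, beside 24.2% of all genes that passed in either direction. *Fzd3* (chr14:65192441-65262463), known for its part in axon guidance and planar polarity, stood at 1340.3, 1764 and 1978 in controls and 764, 614 and 761 in mutants, a log2 fold change of -1.24 ± 0.17 (SE, adjusted p 0.000915). All 3 mutant libraries lie below the lowest control. *Fzd8*, a canonical receptor, stood at 2587, 2608 and 2602 in controls and 4028, 3972 and 3417 in mutants, a change of 0.55 ± 0.10 (SE, adjusted p 0.0036) that is smaller than 2-fold. *Fzd4*, the receptor of norrin as well as of Wnts in blood vessels, stood at 1852, 962 and 988 in controls and 1816, 2461 and 2415 in mutants. Control replicate 1 and mutant replicate 1 overlap, and the change was 0.87 ± 0.25 (SE, adjusted p 0.0283). Without control replicate 1 or mutant replicate 1 it passed the threshold, with values of up to 1.18, as it did at 1.03 with all 6 libraries scaled to the same total.

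Among the 8 Frizzled receptors analysed, which leave out *Fzd2* and *Fzd7*, *Fzd1* was the leading one per kb in both genotypes, with 55.2% ± 2.2 of their summed level in controls and 53.0% ± 0.2 in mutants (SD, n = 3), and *Fzd8* was the next with 20.9% ± 0.9 and 24.8% ± 2.2. By the means, *Fzd4* came after them in both genotypes, although in controls it stood at 189 ± 75.4 per kb against 132 ± 25.4 for *Fzd3*, which is within their spread. *Fzd1* itself had a change of 0.24 with an adjusted p of 0.0602, and *Fzd5*, *Fzd6*, *Fzd9* and *Fzd10* ranged from -0.24 to 0.41 with intervals that include 0. The co-receptors did not pass either. *Lrp5* had a change of 0.12 (95% confidence interval -0.13 to 0.36) and *Lrp6* of -0.19 (-0.58 to 0.21), so a 2-fold change of either lay outside its interval.

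*Rspo1* fell, *Rspo2* and *Rspo3* rose, and *Rspo4*, tested through its mutant values alone, rose as well. *Rspo1* (chr4:124986430-125009093), the founding member of the family, stood at 487, 454 and 371 in controls and 191, 198 and 133 in mutants, a log2 fold change of -1.34 ± 0.23 (SE, adjusted p 0.00267). *Rspo2* (chr15:43020794-43170828), known from limb and lung development and from the neuromuscular junction, stood at 60.0, 32.1 and 53.2 in controls and 245, 195 and 114 in mutants, a change of 1.89 ± 0.40 (SE, adjusted p 0.00771). Neither gene has values that overlap between genotypes.

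*Rspo3* (chr10:29452418-29535868), known from vessels and mesenchyme, stood at 73.3, 43.5 and 12.7 in controls and 135, 112 and 160.2 in mutants. Its change was 1.93 ± 0.60 (SE, adjusted p 0.0367), and it was 1.24 without control replicate 3, the lowest library. In edgeR on the reads of 5 libraries it was 1.52 and lost its call, with an unadjusted p of 0.052. *Rspo4* (chr2:151842926-151874668), known for nail formation, had 0, 8 and 0 reads in controls and 58, 33 and 38 in mutants, or values of 0, 7.56 and 0 against 42.2, 31.8 and 37.6. All 3 mutant libraries lie above the controls, but the size of the change, 4.21 ± 0.98 (SE, adjusted p 0.0111), depends on the pseudocount at such low values and ran from 1.96 with a pseudocount of 10 to 6.45 with 0.1. It was also 5.25 without control replicate 2, the only control library with reads.

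On the scale per kb of exon, *Rspo1* was the leading R-spondin in both genotypes, but its share fell from 87.6%, 90.9% and 93.0% in the control libraries to 47.4%, 53.8% and 43.2% in the mutant libraries. *Rspo3* rose from 5.2% ± 3.1 to 24.3% ± 7.4 of the summed level, *Rspo2* from 3.9% ± 1.3 to 19.1% ± 4.6 and *Rspo4* from 0.4% ± 0.7 to 8.5% ± 1.5 (SD, n = 3). The summed R-spondin level was 250 ± 40.9 per kb in controls and 185.5 ± 25.2 in mutants, and mutant replicate 1 at 208 exceeded control replicate 3 at 206. Without division by length the R-spondin sum was 531.5 ± 91.9 in controls and 531.5 ± 85.0 in mutants. The shares of the 4 genes thus did not overlap between genotypes, while their sum did.

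Among the 5 inhibitors that bind the ligand, *Wif1* and *Sfrp4* rose and *Sfrp5* was lower by less than 2-fold. *Wif1* (chr10:121034002-121100643), Wnt inhibitory factor, stood at 6.66, 13.2 and 20.3 in controls and 74.2, 247 and 126 in mutants, a log2 fold change of 3.33 ± 0.60 (SE, adjusted p 0.00328). Over all 6 libraries it was the strongest rise among members above the floor of 3 reads in every library, and it was 2.66 with a pseudocount of 10. *Sfrp4* (chr13:19623102-19632994), a secreted Frizzled-related protein known from bone, stood at 4916, 5392 and 3767 in controls and 10075, 14978 and 10493 in mutants, a change of 1.33 ± 0.18 (SE, adjusted p 0.000827). Both genes were higher in each mutant library than in any control, with the highest value in mutant replicate 2, the library with the highest adipocyte sum. The part of adipocyte RNA in these values was not tested.

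*Sfrp5*, the closest relative of *Sfrp1*, stood at 3279, 4156 and 4075 in controls and 2702, 2378 and 2087 in mutants. It lay lower in every mutant library, with a change of -0.68 ± 0.14 (SE, adjusted p 0.00546). *Sfrp1* had a change of 0.09 (95% confidence interval -0.14 to 0.31) and *Sfrp2* of 0.26 (-0.53 to 1.05). Per kb, the leading inhibitor was *Sfrp1* in controls, at 2447 ± 209.5 against 2019 ± 255 for *Sfrp5* and 1123 ± 199.8 for *Sfrp4* (SD, n = 3). In mutants *Sfrp4* at 2835 ± 650.5 and *Sfrp1* at 2598 ± 170.4 did not differ beyond their spread. *Wif1*, for all its rise, made up 0.8% ± 0.4 of the inhibitor level in mutants. The summed level of the 5 genes was 5976 ± 78.8 per kb in controls and 7176 ± 944 in mutants.

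Of the Dickkopf genes, *Dkk3*, a divergent member of the family, stood at 1547, 1719 and 1391 in controls and 876, 796.0 and 804 in mutants, a change of -0.91 ± 0.13 (SE, adjusted p 0.000879) just short of 2-fold. With the libraries scaled to the same 75th percentile it was -1.02 and passed. *Dkk2*, a co-receptor ligand known from skin and eye, had a change of 0.31 with a 95% confidence interval of -0.36 to 0.98. *Dkk1*, the classical co-receptor blocker and itself a target gene, had 0 reads in the 3 control libraries and 10, 8 and 0 in the mutant libraries, and *Dkk4* had 0 reads throughout, so neither was tested.

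The axins did not pass. *Axin2* stood at 536, 557 and 439.7 in controls and 498, 506 and 364 in mutants, and the genotypes overlap. Its change was -0.17 with a 95% confidence interval of -0.61 to 0.26. A change of 2-fold in either direction was therefore outside the interval, although ligands, R-spondins and inhibitors of the same pathway changed. *Axin1*, the scaffold that is not a target, had a change of 0.09 (-0.21 to 0.40).

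**Figure D3:**
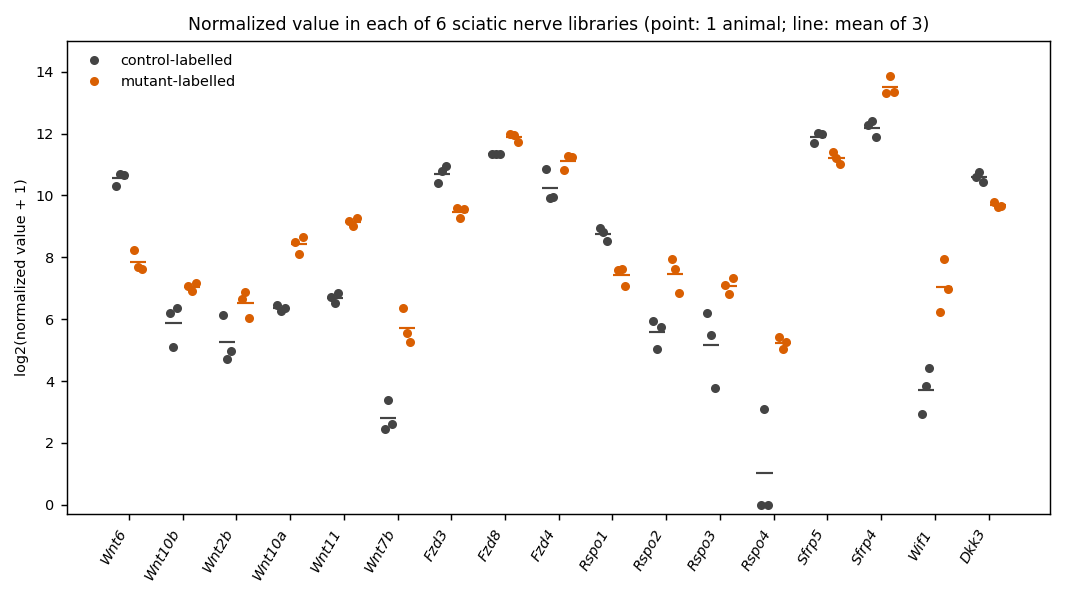
Normalized values, as log2(value + 1), of the 17 members that passed the threshold or had a limma adjusted p no higher than 0.05, in each of the 6 libraries; points are single animals and lines the mean of 3. The mutant points lie wholly above or below the control points except for *Wnt2b* and *Fzd4*, and *Wnt6* is the ligand with the highest control points.

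Other genes of the pathway were taken from lists written from textbook knowledge. Of 86 genes 85 were tested, and 6 rose and 14 fell, or 23.5%, close to the 24.2% of all genes. With the libraries scaled to the same total, 9 rose and 9 fell. The median change was -0.13, beside 0.03 over all genes. Of 11 tested genes for secretion and extracellular handling of Wnts 0 rose and 3 fell (27.3%). *Porcn*, the acyltransferase that attaches the lipid that Wnt proteins need for secretion, fell from 463 ± 48.8 to 182 ± 72.9 (SD, n = 3), a log2 fold change of -1.41 ± 0.28 (SE, adjusted p 0.00552). *Frzb*, a further secreted Frizzled-related inhibitor, fell from 422 ± 35.3 to 69.8 ± 8.77, a change of -2.58 ± 0.23 (adjusted p 8.93e-05), and *Gpc3*, a glypican at the cell surface, fell by 1.01 on the log2 scale. *Frzb* thus went against *Sfrp4*, a member of the same family.

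Of 18 membrane genes 3 rose and 3 fell (33.3%, beside 24.2% of all genes). *Lgr5*, an R-spondin receptor and target gene, fell from 700.4 ± 77.7 to 154 ± 5.32 (SD, n = 3), a log2 fold change of -2.18 ± 0.18 (SE, adjusted p 5.65e-05). Of its relatives, chosen here after their values were seen because they bind the same ligands, *Lgr4* fell from 7079.9 ± 420.3 to 3057 ± 506 and *Lgr6* rose from 431 ± 35.6 to 1048 ± 252, with changes of -1.22 and 1.25 and adjusted p of 0.000218 and 0.00169 by limma. The R-spondin receptors were therefore split in direction, as the R-spondins were. Of the Dickkopf co-receptors, *Kremen1* fell from 1995 ± 116 to 726 ± 284, a change of -1.53 ± 0.25 (SE, adjusted p 0.00223), and *Kremen2*, tested through its mutant values alone, rose from 3.89 ± 3.46 to 109 ± 50.6, a change of 4.80 ± 0.89 (SE, adjusted p 0.00384). *Tnfrsf19*, a receptor of the tumour necrosis factor family and a target gene, stood at 26.7, 13.2 and 11.4 in controls and 817, 282 and 134 in mutants, a change of 4.21 ± 0.65 (SE, adjusted p 0.00158).

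Of 27 cytosolic genes, which include dishevelled, β-catenin, its kinases and its destruction complex, 0 rose and 2 fell (7.41%, beside 24.2% of all genes). These were *Nkd1*, a feedback antagonist of dishevelled, with a change of -1.48 ± 0.19 (SE, adjusted p 0.000547), and *Ctnnbip1*, which keeps β-catenin from TCF, with -1.03 ± 0.15 (SE, adjusted p 0.00126). Of 14 nuclear genes 2 rose and 1 fell (21.4%). *Lef1*, a DNA-binding partner of β-catenin, stood at 48.9, 80.3 and 58.3 in controls and 296, 531 and 488 in mutants, a change of 2.78 ± 0.32 (SE, adjusted p 0.000331). *Sp5*, a target gene and transcription factor, had values of at most 18.9 and was tested through its mutant values alone, and its change of 2.89 had an adjusted p of 0.072, while *Tle2*, a co-repressor of the groucho family, fell by 1.13 on the log2 scale. Of 15 planar polarity genes 1 rose and 5 fell (40.0%, beside 24.2% of all genes, 13.9% higher and 10.4% lower). The 3 cadherins *Celsr1*, *Celsr2* and *Celsr3* fell, with log2 fold changes of -2.30, -3.20 and -2.14 and adjusted p of 9.69e-06, 6.24e-05 and 0.00221 by limma, and *Prickle2* fell by 1.08. All 8 myelin genes and 3 of 6 Schwann cell genes fell in the same libraries, and the part of Schwann cell content in these falls was not tested.

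**Figure D4:**
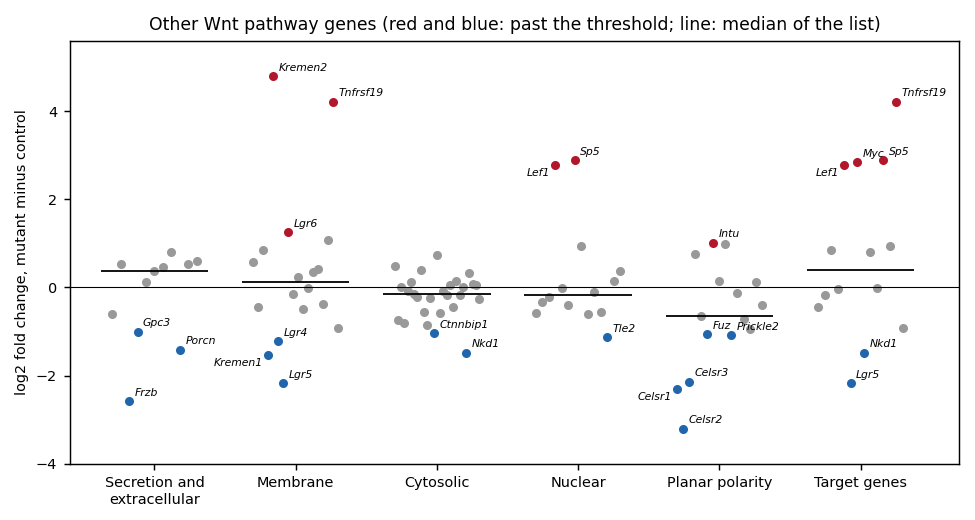
Log2 fold change, mutant minus control, of the tested genes of 5 pathway lists and of the list of target genes (each point 1 gene, n = 3 libraries per genotype); the black line is the median of a list, and genes past the threshold are named in red or blue. The planar polarity list has the lowest median, -0.64, with 3 *Celsr* genes at its lower end, and the target genes run from *Lgr5* at -2.18 to *Tnfrsf19* at 4.21.

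The target genes did not move together. Of 15 genes widely used as readouts of β-catenin, 14 were tested, and 4 rose, 2 fell and 8 did not pass, or 42.9% past the threshold beside 24.2% of all genes, with a median change of 0.39 beside 0.03. With the libraries scaled to the same total, 6 rose and 2 fell, beside 6407 of 25802 genes that passed. The list shares genes with the membrane, cytosolic and nuclear lists and holds *Axin2* and *Dkk1*, so it is not separate evidence. *Myc*, the proto-oncogene, rose from 1127 ± 183.3 to 8036 ± 936 (SD, n = 3), a log2 fold change of 2.84 ± 0.14 (SE, adjusted p 6.59e-06), and *Lef1*, *Sp5* and *Tnfrsf19* rose as given above. *Lgr5* and *Nkd1* fell. *Axin2* and *Ccnd1*, the gene of cyclin D1, lay at -0.17 and -0.04. The readouts thus held rises and falls past the threshold beside genes with a change near 0.

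Of the 44 members, 19 share their locus with other annotated genes. On the opposite strand, 2 genes each overlap *Wnt2b* and *Sfrp2*, and 1 each overlaps *Wnt1*, *Wnt3*, *Wnt5a*, *Wnt5b*, *Wnt7b*, *Rspo2*, *Rspo4*, *Fzd5*, *Lrp5*, *Dkk1* and *Axin2*. On the same strand 3 overlap *Fzd3*, 2 each overlap *Rspo3* and *Lrp6*, and 1 each overlaps *Wnt9a*, *Dkk2* and *Axin1*. The libraries were made to keep strand, but whether the counting used it is not given in the sources used here, so the values of these genes are uncertain to that extent. Without mutant replicate 3, the library with the most skeletal muscle RNA, 9 members rose and 3 fell. In that fit 5787 of the 25802 genes tested passed, 54.9% of them higher in mutants.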

How the data were processed

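The members and lists were chosen with earlier results of these data known. The authors mapped the reads to mm10 with STAR 2.4.0, counted the reads that fell on a FAST DB gene's constitutive regions, and normalized the counts with DESeq2 size factors. The deposited table holds the resulting signal for each gene and library. No other column of values per sample was found. Dividing by the value of a single read gave whole reads, within 0.01 read, for 100% of the values.

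From this table, log2(value + 1) was fitted with limma 3.58.1 (lmFit, eBayes with trend; R 4.3.3) for the 25802 genes with a mean of at least 10 in a genotype, without a block, and p-values were adjusted by the Benjamini-Hochberg method. Replicates are separate animals named by the labels. The p-values set the difference between genotypes against the spread between animals, which limma moderates toward a trend over all genes. Every member is accounted for, and of each pathway list up to 4 genes are named, those with the largest change among the genes past the threshold without overlap. The count tests of edgeR 4.0.16 and DESeq2 1.42.0 used the reads of 5 libraries and called 5392 and 5658 genes, against 5787 with limma on the same 5 and 6251 with limma on all 6. The scripts were tested on simulated data. Promoters are from RefSeq and exon lengths from GENCODE vM21. Alternatives were pseudocounts of 0.1 and 10, other filters, scalings and thresholds, a replicate block, and each library left out.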

Additional observations from a re-analysis of the deposited data

How the results depend on the processing

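Of the 13 members past the threshold, 10 kept direction and call under all 18 settings they could be fitted in. The exceptions were *Wnt10b*, *Wnt2b* and *Rspo3*, whose change of 1.52 in edgeR on 5 libraries had an unadjusted p of 0.052. The members that rose numbered 8 to 12 and those that fell 3 to 4 under the 18 settings. Over all genes the calls ran from 4706 (of 18619 with a minimum mean of 50) to 6892 (of 37315 with no filter). With 1 library left out, 8 to 12 members rose and 3 fell, 5 to 8 pathway genes rose and 11 to 15 fell, and 3 to 5 target genes rose and 2 to 3 fell. The same fits called 5704 to 6278 of the 25802 genes tested. Rescaling to the same total moved the median change of all genes to 0.19 and the share of calls that were higher from 57.3% to 66.2%, and the pathway genes then split into 9 that rose and 9 that fell. The same 75th percentile moved the median to -0.08 and the share to 50.6%.

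Members near 0 changed sign. *Axin1*, *Sfrp1* and *Wnt5b* came to -0.021, -0.028 and -0.048 with the same 75th percentile, and *Wnt5b* to -0.043 in both edgeR and DESeq2 on 5 libraries. *Wnt1* came to 0.18 with a pseudocount of 10, 0.65 in edgeR and 0.68 in DESeq2. With 1 library left out, *Wnt5b* ran from -0.56 without control replicate 3 to 0.43 (-0.18 without mutant replicate 2), *Wnt1* from -1.16 to 1.14 without mutant replicate 1, and *Sfrp2* from -0.14 without control replicate 2 to 0.63. The cause was not tested.

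Same-numbered libraries did not deviate together (correlations of -0.062, -0.055 and 0.009). A replicate block gave the same 10 higher and 3 lower members, 6 and 14 pathway genes and 4 and 2 target genes, and 6149 called genes in all. edgeR and DESeq2 on all 6 libraries were planned but not run. They were run on 5 libraries without mutant replicate 3, a choice made after seeing the data. The values of that library also gave whole reads, each worth 0.989, but a step so near 1 did not meet the criterion set for using recovered reads in a count test.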

Other observations

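Even read numbers prevailed among low values. Of genes with 1 to 20 reads in a library, 74.9% to 76.2% had an even number in each of the 6 libraries, and all reads of the 8 members too low to be tested came in even numbers. The reads were sequenced in pairs, and the number of fragments behind the counts of low members such as *Rspo4* and *Wnt7b* was not determined.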
